A study of Mus musculus with 4 samples.

Results

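The 10 genes described here mark cortical GABAergic interneurons: the neuropeptide genes Sst, Cort, Npy, Vip, Cck and Crh, the calcium-binding protein genes Pvalb, Calb1 and Calb2, and the transcription factor gene Lhx6. They were chosen by symbol, and all 10 were found among the 12700 genes of the deposited count table. The mice were C57BL/6 animals aged 9 months, either Ids-ko (genotype Ids-/-), a model of Hunter syndrome that lacks the lysosomal enzyme iduronate sulfatase, or wild type (wt). Both areas were taken from each genotype, the cerebral cortex (Cx) and the block of midbrain, diencephalon and hippocampus (M), which per the study's methods also takes in the striatum. Each brain gave both areas, so the Cx and M pools of a genotype do not stand for separate mice. The RNA of 7 mice was pooled for each condition and sequenced as 1 library, giving the 4 libraries CxH (Cx, Ids-ko), CxWT (Cx, wt), MH (M, Ids-ko) and MWT (M, wt). No condition was replicated, so a test here sets one library against another rather than one condition against another, and variation between mice or pools could not be measured.

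Cortical interneurons release GABA onto other neurons and fall into classes that are told apart by the peptides and calcium-binding proteins they make. Cells that arise in the medial ganglionic eminence depend on Lhx6 and become either fast-spiking Pvalb cells or Sst cells, part of which also make Npy or Cort. Cells from the caudal ganglionic eminence include the Vip cells, many of which make Calb2, and Cck basket cells. None of these genes is restricted to cortical interneurons. Cck is also made by pyramidal and thalamic neurons, Npy and Sst by cells of the striatum and hypothalamus, Crh by hypothalamic neurons, Calb1 by striatal projection neurons, hippocampal granule cells and dopamine neurons, and Calb2 and Pvalb by many neurons of the midbrain and thalamus.

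The table held 16380080 to 23475080 reads on genes per library. Levels are reads per 1000000 aligned reads (RPM), ratios are log2 of the RPM of the first library over the second, and each ± is the standard error of that log2 ratio from counting alone. A gene was called when a likelihood ratio test on the Poisson counts of the 2 libraries passed 0.05 and its log2 ratio reached 0.7 in either direction, which is the rule stated in the study's methods. Differences that were not called are given as values.

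The libraries did not all match their labels. Ids, the disrupted gene (chromosome X, 67596244 to 67618260, minus strand, mm9), had 135 RPM in CxH and 354 RPM in CxWT. In M the order was turned, with 368 RPM in the library labelled MH and 155 RPM in the library labelled MWT. A list of 18 genes of cortical excitatory neurons summed to 2444 RPM in CxH and 2224 RPM in MH, against 486.5 RPM in CxWT and 412.9 RPM in MWT. A list of 20 genes of midbrain and diencephalon summed to 616.2 RPM in CxWT and 533.0 RPM in MWT, against 40.2 RPM in CxH and 53.5 RPM in MH. Of these 20 genes, 6 had 3 reads or fewer in CxH (Slc6a4, En1, Gata3, Hcrt, Oxt and Avp), 3 had so few in MH (Slc6a4, En1 and Hcrt), and none in CxWT or MWT. By these markers the library labelled CxWT resembled MWT in its area, and MH resembled CxH. The part of these markers in the results below was not tested, and genotype, area and library cannot be told apart. Whether labels were exchanged among the libraries was not tested. By the area markers, the ratios given for Cx and for M each set a library with high cortical markers over one with high midbrain and diencephalon markers. Every direction below is therefore between libraries as labelled, and all 6 pairs of libraries are given.

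The 6 peptide genes encode precursors that are cut and stored in dense-core vesicles, and somatostatin and cortistatin, the products of Sst and Cort, bind the same receptors. Promoter sequence is shown for the peptide genes whose promoters hold a cAMP response element or its core, the motif through which Sst transcription follows cAMP and calcium signals. The palindrome TGACGTCA, which reads the same on both strands, was searched in windows from 250 bases before to 50 bases after each transcript start (RefSeq, GRCm38.p6, a later build than that of the counts). It was in 1.79% of 32851 promoters and, of the 7 genes with a promoter in the table (10 promoters, none of them for Crh, Calb1 or Calb2), in Sst alone. The core TGACG, searched on both strands and contained in the palindrome, was in 20.8% of promoters and in those of Sst, Cck, Cort and Vip. The stretches below run 5′ to 3′ on the strand of the gene, with the motif in capitals, at chr16:23890860-23890917 (minus strand) for Sst, chr4:149126764-149126806 (minus strand) for Cort, chr10:5639114-5639168 (plus strand in this build, while the mm9 annotation has the gene on the minus strand) for Vip and chr9:121495712-121495766 (minus strand) for Cck.
Sst: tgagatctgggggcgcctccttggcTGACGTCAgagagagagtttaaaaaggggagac
Cort: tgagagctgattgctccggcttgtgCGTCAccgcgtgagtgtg
Vip: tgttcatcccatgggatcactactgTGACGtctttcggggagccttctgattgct
Cck: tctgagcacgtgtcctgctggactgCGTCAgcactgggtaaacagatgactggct
Counted from the transcript start, the motif lies at -48 to -41 in Sst, -18 to -14 in Cort, -79 to -75 in Vip and -47 to -43 in Cck. A match of letters is a description of the sequence and not evidence that a factor binds there.

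Sst, the inhibitory peptide of dendrite-targeting interneurons (chromosome 16, 23889667 to 23890930, minus strand, mm9), had 91.5 RPM in CxH and 67.6 in MH, against 46.4 in CxWT and 34.3 in MWT. Both libraries labelled Ids-ko lay above both labelled wt. The log2 ratio was 0.98 ± 0.044 for CxH vs. CxWT and 0.98 ± 0.054 for MH vs. MWT, and the gene was called higher in both. The ratios of Cx and M differed by 0.00 ± 0.070. Once GC content and transcript length were corrected for, the ratio in Cx was 0.65, below the threshold, and in M it was 1.03, a difference of -0.37.

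Cort, which encodes cortistatin (chromosome 4, 148499143 to 148500872, minus strand), was at the low end of the measured range. It had 74 reads in CxH and 57 in MH, against 10 reads each in CxWT and MWT. These are 1.92, 1.53, 0.297 and 0.345 RPM. The counting intervals of the Ids-ko and wt libraries did not overlap. The gene was called higher in CxH than in CxWT (log2 ratio 2.69 ± 0.49, 6.46-fold) and in MH than in MWT (2.14 ± 0.49, 4.42-fold). With 10 reads in each wt library the size of these ratios is loosely known, with approximate 95% intervals of 1.74 to 3.64 in Cx and 1.17 to 3.11 in M.

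Npy, a peptide of neurogliaform cells and of part of the Sst cells (chromosome 6, 49772709 to 49779506, plus strand), had 43.9 RPM in CxH and 42.8 in MH, against 12.2 in CxWT and 9.29 in MWT. The libraries CxH and MH differed by 0.04 ± 0.050 on the log2 scale, and by -0.25 after the correction for GC content and length. Npy was called higher in CxH vs. CxWT (1.85 ± 0.079, 3.60-fold) and in MH vs. MWT (2.20 ± 0.095, 4.61-fold).

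Vip, the peptide of interneurons that inhibit other interneurons (chromosome 10, 4698927 to 4707323, minus strand), was the one gene called higher in both comparisons whose level was highest in MH. It had 20.8 RPM in CxH and 27.1 in MH, against 6.51 in CxWT and 6.18 in MWT. The ratio was 1.67 ± 0.11 in Cx and 2.13 ± 0.12 in M. The wt libraries differed by 0.08 ± 0.15, within counting error, but by 0.46 after the correction for GC content and length. That correction put the ratio at 1.97 in Cx and 2.68 in M.

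Cck, a peptide of basket cells and of many excitatory neurons (chromosome 9, 121398943 to 121404807, minus strand), had 152 RPM in CxH and 98.8 in MH, against 34.7 in CxWT and 30.7 in MWT. It was called higher in CxH vs. CxWT (2.14 ± 0.046, 4.39-fold) and in MH vs. MWT (1.68 ± 0.054, 3.21-fold). Its ratio of CxH vs. MH, 0.63 ± 0.030, was not called and was 0.32 after the correction for GC content and length.

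Crh, the stress hormone of the hypothalamus and a peptide of some Vip interneurons (chromosome 3, 19593401 to 19595396, minus strand), was the one peptide gene not called in Cx or M. It had 78 reads in CxH and 60 in MH, and 57 in CxWT and 35 in MWT. These are 2.03, 1.61, 1.70 and 1.21 RPM, in that order. Its ratios were 0.26 ± 0.25 in Cx and 0.41 ± 0.31 in M. The 95% intervals, -0.24 to 0.75 and -0.19 to 1.01, included 0, so no difference was detectable at this depth.

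Lhx6 encodes the LIM homeodomain factor that Pvalb and Sst interneurons need and that adult cells keep (chromosome 2, 35937470 to 35960928, minus strand). It had 16.0 RPM in CxH and 12.04 in MH, against 9.73 in CxWT and 7.60 in MWT, in the same order as Sst. The log2 ratio of 0.72 ± 0.099 in Cx was just past the threshold and that of 0.66 ± 0.12 in M just under it, and these ratios differed by 0.06 ± 0.15. With the correction for GC content and length the ratio was 0.49 in Cx, where the call was lost, and 0.29 in M. In M the gene was called with TMM or DESeq2 scaling, at 0.72.

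**Figure D1:**
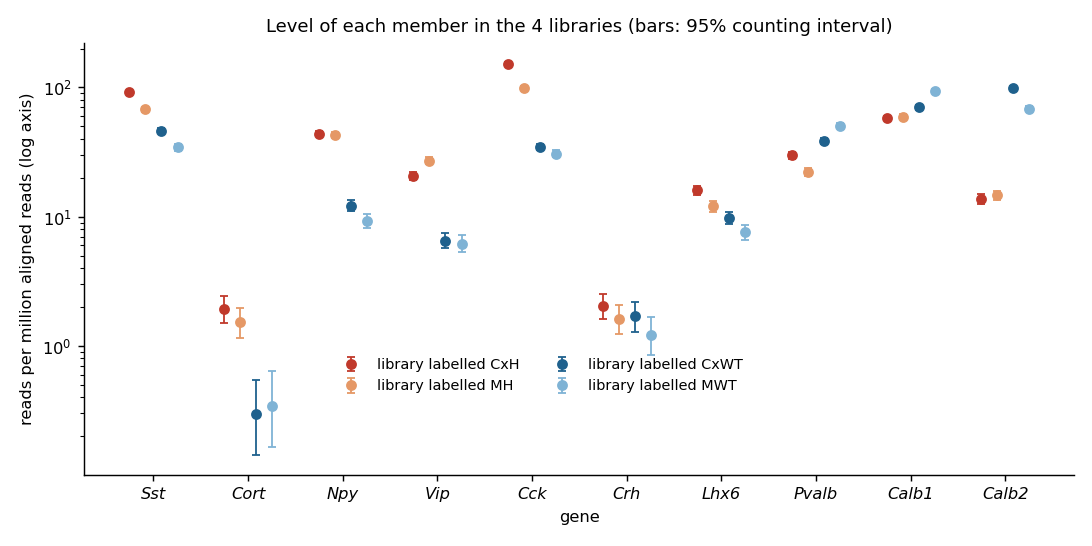
Level of each gene in RPM (log axis) in the 4 libraries as labelled, with 95% counting intervals. For Sst, Cort, Npy, Vip, Cck and Lhx6 both libraries labelled Ids-ko lie above both labelled wt, and for Pvalb, Calb1 and Calb2 both lie below, while the intervals of Crh overlap.

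Of the 3 calcium-binding protein genes, Calb2 was called lower in both comparisons, Pvalb in M and Calb1 in neither. All 3 encode EF-hand proteins that buffer calcium in the cytoplasm. Calb2, which encodes calretinin (chromosome 8, 112661402 to 112692110, minus strand), had 13.7 RPM in CxH and 14.6 in MH, against 98.7 in CxWT and 68.5 in MWT. It was called lower in CxH vs. CxWT (-2.85 ± 0.068, 7.20-fold) and in MH vs. MWT (-2.23 ± 0.070, 4.69-fold). Within counting error its ratio was as large in size as that of Cort in Cx and that of Npy in M. CxH and MH differed by -0.09 ± 0.088, and CxWT was above MWT by 0.53 ± 0.041, which was not called.

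Pvalb, which encodes parvalbumin of fast-spiking cells (chromosome 15, 78021544 to 78036830, minus strand), had 29.8 RPM in CxH and 22.2 in MH, against 38.5 in CxWT and 50.7 in MWT. It was called lower in MH vs. MWT (-1.19 ± 0.063, 2.29-fold). In Cx the log2 ratio was -0.37 ± 0.059 and it was not called. The ratio in Cx minus the ratio in M was 0.82 ± 0.086, and 0.43 once GC content and length were corrected for. The difference between CxH and MH (0.43 ± 0.066) and that between CxWT and MWT (-0.40 ± 0.055) had opposite signs.

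Calb1, which encodes calbindin (chromosome 4, 15808411 to 15835211, plus strand), had 58.1 RPM in CxH and 59.4 in MH, against 70.2 in CxWT and 94.4 in MWT. Both Ids-ko libraries lay below both wt libraries, by -0.27 ± 0.043 in Cx and -0.67 ± 0.041 in M, and neither was called. With column totals as scaling Calb1 was called lower in M, at -0.73. After the correction for GC content and length the ratio in Cx turned to 0.30 and that in M was -0.23. Its transcript had the lowest GC content of the 10 genes, 36.8%.

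In CxH vs. CxWT, 6 of the 10 genes were called higher, beside 9.46% of all 12700 genes, and 1 was called lower, beside 11.5%. In MH vs. MWT, 5 were called higher, beside 12.3%, and 2 lower, beside 12.7%. The 5 peptide genes Sst, Cort, Npy, Vip and Cck were called higher in both, which 6.23% of all genes were, and Calb2 lower in both, which 6.46% were. The median log2 ratio of the 10 genes was 0.85 in Cx and 0.82 in M, against -0.09 and -0.07 over all genes. In an additive fit of the area and genotype labels over the 4 libraries, added after the data were seen (edgeR's quasi-likelihood test, 1 residual degree of freedom), 8 of the 10 genes passed a Benjamini-Hochberg adjusted p of 0.05 for the genotype label, beside 18.7% of all genes. Crh (adjusted p = 0.54) and Calb1 (adjusted p = 0.11) did not pass. For the area label 0 passed, beside 0.00% of all genes, and Sst alone had an unadjusted p under 0.05, beside 615 of all genes. This fit takes the Cx and M libraries as repeats of each genotype label, although they come from the same mice. Since these are bulk samples, fewer cells of a type and less RNA per cell cannot be told apart in any of these values. The GC content of a transcript went with the ratio across 10808 genes, with Spearman's rho of 0.461 in Cx and 0.486 in M, a description across genes that are not independent replicates. The 10 genes ranged from 36.8% to 58.5% GC.

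**Figure D2:**
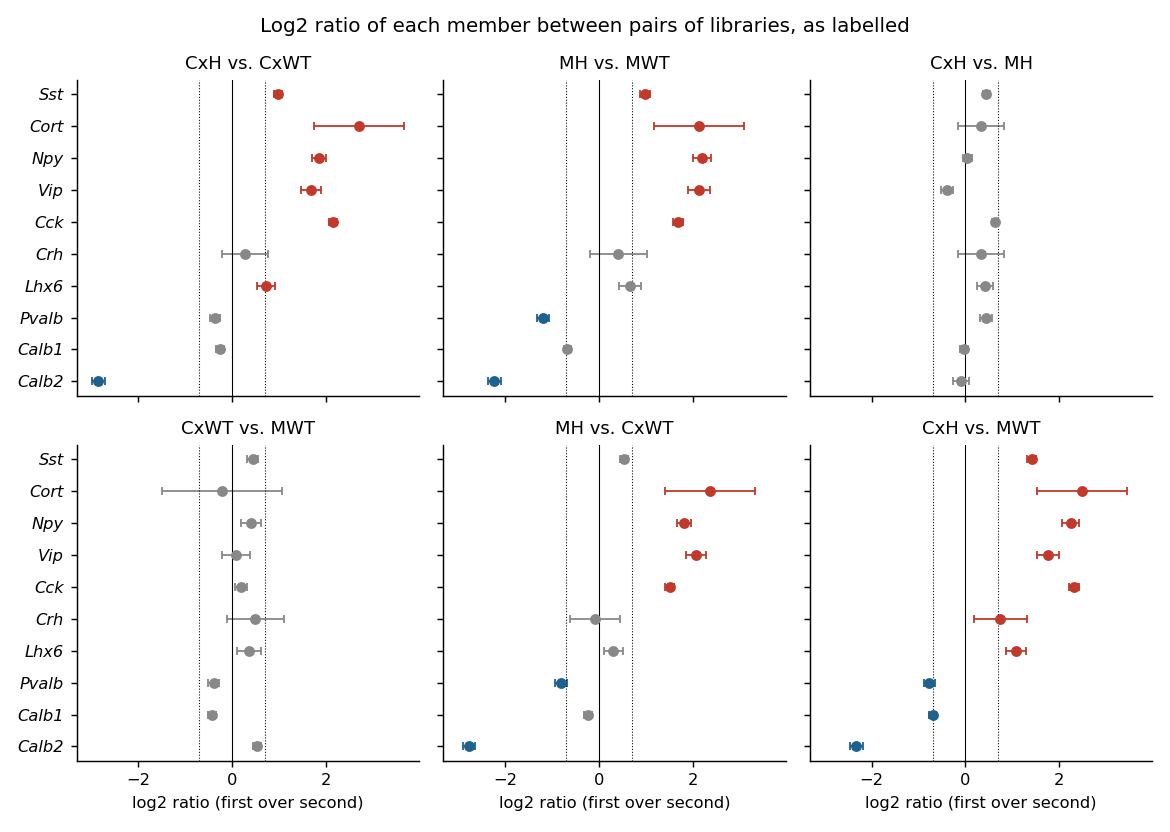
Log2 ratio of each gene between the libraries of all 6 pairs, first over second, with 95% counting intervals; red is called higher, blue called lower, grey not called, and dotted lines mark 0.7 in size. None of the 10 genes was called in CxH vs. MH or CxWT vs. MWT, beside 3.50% and 7.54% of all genes. All 10 passed in CxH vs. MWT, with Calb1 at the threshold, beside 15.6% of all genes called higher and 15.1% lower.

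Between areas within a genotype label, 0 of the 10 genes were called. CxH vs. MH called 3.50% of all genes, and the ratios of the 10 genes ran from -0.39 for Vip to 0.63 for Cck. CxWT vs. MWT called 7.54%, and the ratios ran from -0.43 for Calb1 to 0.53 for Calb2. No ratio of the 10 genes reached the threshold of 0.7 in these pairs. The count of 0 was therefore fixed by that threshold, whatever test was joined to it. Some of these ratios lay beyond counting error, such as Cck in CxH vs. MH (0.63 ± 0.030) and Calb2 in CxWT vs. MWT (0.53 ± 0.041). Others lay within it, such as Npy in CxH vs. MH (0.04 ± 0.050). Crh alone lay higher in both Cx libraries than in both M libraries, an order held by 13.5% of genes, with overlapping intervals. This order was lost with TMM or DESeq2 factors, where the ratio of Crh in MH vs. CxWT turned from -0.08 to 0.03.

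The pairs that differ in both labels share these 4 libraries, so they are not further evidence. In MH vs. CxWT, where Ids differed by 0.06 ± 0.018, the genes Npy (1.81 ± 0.080), Vip (2.06 ± 0.11), Cck (1.51 ± 0.048) and Cort (2.36 ± 0.49) were called higher, beside 6.41% of all genes. Calb2 (-2.76 ± 0.067) and Pvalb (-0.80 ± 0.064) were called lower, beside 8.89%. Pvalb lost its call with TMM or DESeq2 factors, at -0.69, and with an assumed coefficient of variation of 0.2. Sst was at 0.54 ± 0.046 and was not called. In CxH vs. MWT, where Ids differed by -0.20 ± 0.029, all 10 genes were called, 7 higher beside 15.6% and 3 lower beside 15.1%. There Calb1 was at -0.70 ± 0.041 and Crh at 0.74 ± 0.29. After the correction for GC content and length Calb1 turned to 0.14. Pvalb (-0.51) and Lhx6 (0.57) lost their calls with it too, so that 7 genes stayed called. Crh lost its call with column totals (0.64), Calb1 with TMM or DESeq2 factors (-0.66), and with an assumed coefficient of variation of 0.2 the calls of Crh, Pvalb and Calb1 were lost, which left 7. Npy, Vip, Cck and Cort were thus called higher and Calb2 lower in all 4 pairs of a library labelled Ids-ko with one labelled wt, beside 4.90% of all genes called higher in all 4 and 5.08% called lower.

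Both libraries labelled Ids-ko lay above both labelled wt for 6 genes (Sst, Cort, Npy, Vip, Cck and Lhx6), an order held by 24.3% of all genes. They lay below for 3 genes (Pvalb, Calb1 and Calb2), beside 36.9%. No gene had CxH and MWT, the 2 libraries with low Ids, both above or both below the other two, beside 18.9% of all genes.

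**Figure D3:**
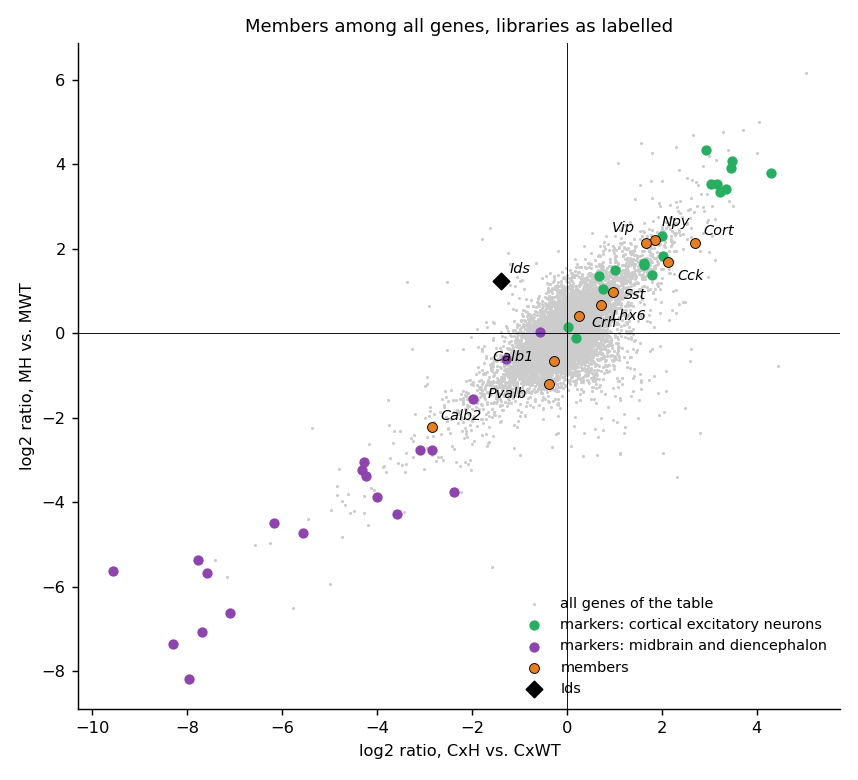
Log2 ratio of CxH vs. CxWT (x axis) against MH vs. MWT (y axis) for all 12700 genes (grey), with the 10 genes, 2 lists of area markers and Ids; a count of 0 was set to 1, so markers near no reads are plotted at a size that depends on this. The peptide genes called higher in both comparisons lie, by that call, on the side of the cortical markers. Calb2, called lower in both, lies on the side of the midbrain and diencephalon markers, and Ids lies at -1.39 and 1.24.

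The make-up of the 10 genes' reads, which does not depend on the library total, parted CxH and MH from CxWT and MWT. The 6 peptide genes made up 72.7% of these reads in CxH and 68.9% in MH, against 31.9% in CxWT and 27.1% in MWT. The 3 calcium-binding protein genes made up 23.6% and 27.7% against 65.0% and 70.4%. Cck alone was 35.4% of the reads in CxH and 10.9% in CxWT, and Calb2 was 3.19% in CxH and 31.0% in CxWT. All 10 genes together summed to 430.2 RPM in CxH and 347.7 in MH, against 318.9 in CxWT and 303.3 in MWT.

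**Figure D4:**
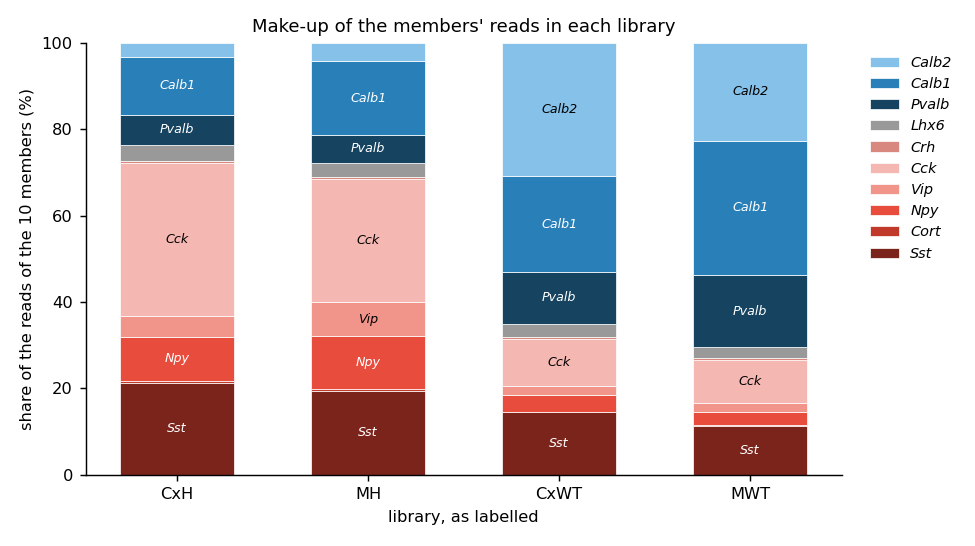
Share of the 10 genes' reads taken by each gene (%, y axis) in the libraries as labelled (x axis); reds are peptide genes, grey is Lhx6 and blues are calcium-binding protein genes. CxH and MH are made up mostly of peptide reads (72.7% and 68.9%), CxWT and MWT of calcium-binding protein reads (65.0% and 70.4%).

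Read ratios within a library, chosen after the values were seen, show which genes kept step before any correction for GC content and length. Not every ratio computed is given. Sst reads per Lhx6 read were 5.71 in CxH and 5.61 in MH, against 4.77 in CxWT and 4.52 in MWT. Pvalb, which belongs to that lineage too, did not keep step: Pvalb reads per Lhx6 read were 1.86 in CxH and 1.84 in MH, but 3.96 in CxWT and 6.67 in MWT. Calb2 and Vip, made together in many cortical cells, parted further. Calb2 reads per Vip read were 0.66 in CxH and 0.537 in MH against 15.2 in CxWT and 11.1 in MWT. Sst did not keep step with Npy, as Sst reads per Npy read were 2.09 in CxH and 1.58 in MH, against 3.8 in CxWT and 3.7 in MWT. Sst reads per Cort read were 47.6 in CxH and 44.3 in MH, against 156 in CxWT and 99.4 in MWT. The counting intervals of this ratio overlapped between MH and MWT.

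The genes of GABA synthesis and transport did not follow the peptides. Gad1 and Gad2, which encode the enzymes that make GABA in every class of GABAergic neuron, had 274 and 117 RPM in CxH and 282 and 126 RPM in MH, against 404 and 274 RPM in CxWT and 460.1 and 302 RPM in MWT. Gad2 was called lower in Cx (-1.22 ± 0.026) and in M (-1.26 ± 0.026), and Gad1 in M (-0.71 ± 0.019) but not in Cx (-0.56 ± 0.019). Of the 5 genes of this list, 2 were called lower in Cx and 3 in M, beside 11.5% and 12.7% of all genes. None was called higher, beside 9.46% of all genes in Cx and 12.3% in M. Abat, the enzyme that breaks GABA down, was called lower in both (-0.86 and -1.05), while Slc32a1, the vesicular transporter, was at -0.43 and -0.42. Set against 100 reads of Gad1 and Gad2, Sst had 23.4 reads in CxH and 16.6 in MH, against 6.85 in CxWT and 4.51 in MWT. On the same scale and in the same order Npy had 11.2, 10.5, 1.80 and 1.22 reads, Calb2 had 3.51, 3.58, 14.6 and 8.99, and Pvalb had 7.61, 5.43, 5.68 and 6.66. Measured this way Pvalb was higher in CxH than in CxWT, the reverse of its order in RPM.

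Per kilobase of the longest coding transcript (RPKM), the order of the genes differed between libraries. In CxH it ran from Cck (191 RPKM) through Sst (153), Npy (77.6), Pvalb (30.5), Calb1 (13.8), Vip (13.6), Calb2 (9.59), Lhx6 (4.60) and Cort (2.84) to Crh (1.53), and Calb1 and Vip did not differ beyond their counting intervals. MH had the same first 4 genes, with 124 RPKM for Cck, 113 for Sst, 75.7 for Npy and 22.7 for Pvalb, and Vip (17.8) above Calb1 (14.1). In CxWT the order began with Sst (77.4), Calb2 (69.0), Cck (43.5), Pvalb (39.4) and Npy (21.5), and the intervals of Cck and Pvalb overlapped. In MWT it began with Sst (57.3), Pvalb (51.9), Calb2 (47.9), Cck (38.5), Calb1 (22.4) and Npy (16.4), where Sst and Pvalb, and Pvalb and Calb2, overlapped. Cort and Crh were the 2 lowest genes in every library, and Lhx6 the next.

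The receptors of these peptides were measured for 13 of 15 genes on a list, of which 5 were called higher and 2 lower in Cx, and 6 higher and 2 lower in M. Of all 12700 genes, 9.46% were called higher for Cx and 12.3% for M, while 11.5% and 12.7% were called lower. The medians of the 13 receptor genes were 0.56 and 0.64. The receptors of VIP and of CCK parted, while Npy1r (0.56 and 0.64), Npy2r (-0.63 and 0.25) and Npy5r (-0.69 and 0.10), receptors of NPY named after their values were seen, were not called in Cx or M. Vipr1, a receptor of VIP that is abundant in cortex, had 909 reads in CxH and 1053 in MH, against 119 in CxWT and 102 in MWT, and was called higher in Cx (2.74 ± 0.14) and M (3.00 ± 0.15). Vipr2, the other VIP receptor, known from the suprachiasmatic nucleus and thalamus, had 80, 141, 406 and 311 reads in the same order and was called lower in both (-2.54 ± 0.18 and -1.51 ± 0.15). Cckbr, the main brain receptor of CCK, was called higher (2.21 ± 0.097 and 2.10 ± 0.11), with 1400 reads in CxH and 265 in CxWT. Cckar, the gut type of CCK receptor, was called lower (-3.38 ± 0.44 and -3.11 ± 0.45), with 12 reads in CxH and 109 in CxWT. The somatostatin receptor genes were picked for naming after their values were seen. Sstr2, Sstr3 and Sstr4 were called higher in Cx (0.98, 1.41 and 1.55) and M (0.90, 1.53 and 2.42), and Sstr1 was at 0.01 and 0.18.

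Of 11 genes that process or pack peptides, 1 was called higher and 1 lower in Cx, and 2 higher and 1 lower in M, to be read beside 9.46%, 11.5%, 12.3% and 12.7% of all genes in the same order, with medians of 0.07 and 0.04. Pcsk1n, an inhibitor of a peptide-cutting protease, had the highest ratio in M (1.29), was at 0.07 in Cx, and was picked after its values were seen. Scg2, which encodes the secretogranin of dense-core vesicles, was called lower in both (-1.34 ± 0.023 and -1.28 ± 0.022). Chgb, a granin, was called higher in Cx (0.81) and was at 0.36 in M. Vgf was at 0.47 in Cx and was called higher in M (0.74), and Chga was at -0.62 and -0.38.

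Of 18 measured transcription factors of interneuron lineages other than Lhx6, 5 were called higher and 5 lower in Cx, and 6 higher and 3 lower in M, with medians of 0.10 and 0.29. The shares of all genes called higher and lower are 9.46% and 11.5% in Cx and 12.3% and 12.7% in M, for this list and the next 2. Satb1, which acts downstream of Lhx6 in Sst cells, was called higher in both (1.34 ± 0.069 and 1.18 ± 0.071). Nkx2-1, which switches Lhx6 on in the embryo and stays on in parts of the hypothalamus and striatum, was called lower in both (-2.18 ± 0.26 and -1.64 ± 0.29). Lhx8, a factor of cholinergic neurons, was also called lower (-1.51 ± 0.25 and -1.92 ± 0.29).

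Of 29 other markers of interneuron classes, 4 were called higher and 9 lower in Cx, and 6 higher and 9 lower in M, with medians of -0.33 and -0.15. Lamp5, a marker of neurogliaform cells that excitatory neurons also make, was called higher (2.36 ± 0.047 and 2.44 ± 0.051). Htr3a, the serotonin receptor of the Vip and Lamp5 classes, was called higher (1.87 ± 0.23 and 1.78 ± 0.25), with 205 reads in CxH and 177 in MH, against 49 in CxWT and 40 in MWT. Sncg, a marker of Cck basket cells that dopamine neurons also make, was called lower (-2.85 ± 0.15 and -2.88 ± 0.18). Chodl, a marker of long-range Sst cells, was called lower (-2.10 ± 0.34 and -2.45 ± 0.31), opposite to Sst.

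Of 21 EF-hand calcium-binding genes measured, Pvalb, Calb1 and Calb2 among them, 4 were called higher and 2 lower in Cx, and 8 higher and 5 lower in M, with medians of 0.27 and 0.24. Calb2 supplied a lower call in both comparisons and Pvalb in M. Hpca, which encodes the calcium sensor hippocalcin of pyramidal cells, was called higher (1.97 ± 0.024 and 1.82 ± 0.028), as was its relative Hpcal4 (1.79 ± 0.016 and 1.69 ± 0.017). Hpcal1 was called lower (-0.96 ± 0.054 and -0.79 ± 0.060).

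The lists of cells and areas that the tissue can hold had the following calls. They are to be read beside 9.46% of all genes called higher and 11.5% lower in Cx, and 12.3% and 12.7% in M. Of 18 genes of cortical excitatory neurons, 15 were called higher in Cx and 16 in M (medians 2.01 and 2.06), among them Fezf2 (3.47 and 4.07). Of 20 genes of midbrain and diencephalon, 19 were called lower in Cx and 18 in M (medians -4.29 and -4.08), and En1 had 1 read in CxH and 0 in MH, against 273 in CxWT and 126 in MWT. Of 10 genes of striatal neurons, 8 were called higher in Cx, and 8 higher and 1 lower in M (medians 1.22 and 1.14). Of 5 hippocampal genes, 1 was called lower in Cx and 3 higher in M (medians 0.46 and 0.87). Of 9 oligodendrocyte genes, 6 were called lower in Cx and 3 in M (medians -0.83 and -0.60). Of 8 astrocyte genes, 2 were called higher and 1 lower in Cx, and 2 lower in M (medians 0.23 and -0.39). Of 9 microglia genes, 6 were called higher in Cx and 3 lower in M (medians 0.80 and -0.64). Of 6 endothelial genes, 2 were called higher in Cx and none in M (medians 0.62 and -0.05). The peptide genes called higher in both comparisons have, by that call, the sign of the cortical and striatal medians. Calb2, called lower in both, has that of the midbrain and diencephalon medians. These shared signs follow from the calls, and a link to the lists was not tested.

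The genes whose profiles over the 4 libraries lay closest to each member were sought among the 11003 genes that reached 100 reads in all libraries, by the Euclidean distance between centred log2 RPM. With 4 points a close match is a description only. Lhx6 was nearest to Dusp3 (distance 0.029), Syt12 and Stard10, and Calb1 to Uso1 (0.033), Srp54c and Copb1. Sst was nearest to Zfp703 (0.043), Cnih2 and Stac2, Pvalb to Ass1 (0.060), Anxa5 and Tmem216, and Npy to Ier5 (0.067), Dlgap2 and Zfp831. Vip was nearest to Ano3 (0.072), Bhlhe22 and Chrd, and Cck to Ttc9b (0.086), Neurl1b and Mmp17. The profile of Calb2 had no match as near, the closest being Peg10 (0.21), Ngb (0.30) and Cartpt (0.33). Peg10, an imprinted gene, had 954 reads in CxH and 1026 in MH, against 6424 in CxWT and 4335 in MWT. Crh and Cort had too few reads for this comparison.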

How the data were processed

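The authors sequenced polyA RNA on a SOLiD 3 Plus instrument, aligned reads to mm9 with PASS (best hit, at most 2 mismatches, no gap) and kept reads that fell on 1 gene only and genes with more than 50% of their length covered. The deposited counts are reads per gene without normalization. Counts were divided by each library's aligned reads. Entrez identifiers gave symbols for 12690 of 12700 genes (RefSeq gene table, GRCm38.p6), and 12348 (97.2%) matched a coding transcript of GENCODE vM1 on mm9, the source of positions, length and GC content. Every gene was tested, with a count of 0 set to 1 for ratios. Reads on genes were 56.6% to 61.0% of aligned reads, and the floor of 3 reads was 0.0779 to 0.104 RPM. Intervals of levels and shares are exact Poisson or binomial, those of log2 ratios are normal approximations from the standard error, and all cover counting error only. With 2 libraries against 2 an exact permutation test cannot go below a p of 0.333, and no p is printed for tests between 2 libraries.

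The 10 genes and all gene lists were chosen with earlier results of these data known. Genes outside the 10 were named by rule: Ids, Gad1, Gad2, the 2 highest and 2 lowest ratios of CxH vs. CxWT in each list among genes with at least 100 reads in 1 library, and the 3 nearest profiles, with exceptions said in place. A few genes that the rule names are not reported here, though they entered all counts and medians. Alternatives were column totals, TMM and DESeq2 scaling, log2 thresholds of 1 and 0.5, 0.5 added to counts, a filter of 100 reads, an assumed coefficient of variation of 0.2, Benjamini-Hochberg adjustment and a correction for GC content and length, which, like the additive fit of area and genotype labels, was added after seeing the data. The calling step was tested on simulated data. The software was R 4.3.3 (DESeq2 1.42.0, edgeR 4.0.16) and Python 3.11.15 (scipy 1.17.1, pandas 2.3.3, numpy 2.4.6, matplotlib 3.10.9).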

Additional observations from a re-analysis of the deposited data

Results flagged for a closer look

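Ids and Pvalb had effects of opposite sign in the contrasts compared, each beyond counting error, and with 1 library per condition neither difference was tested beyond that error. Ids was lower in CxH than in CxWT and higher in MH than in MWT, so its ratio in Cx minus its ratio in M was -2.63 ± 0.034. The same difference of -2.63 arises between CxH vs. MH (-1.44 ± 0.023) and CxWT vs. MWT (1.19 ± 0.025), since both are made from the same 4 libraries. Pvalb was higher in CxH than in MH and lower in CxWT than in MWT, a difference of 0.82 ± 0.086. Once GC content and length were corrected for, these ratios were 0.32 and -0.12 and their difference 0.44, and the difference of Ids was -2.56. Before the correction, none of the other 9 genes had such opposite signs beyond counting error. After it, opposite signs in CxH vs. MH and CxWT vs. MWT were also seen for Npy (-0.25 and 0.6) and Vip (-0.25 and 0.46). The same held for Calb2 (-0.25 and 0.55) and Calb1 (0.36 and -0.17). Calb1 then also had opposite signs in Cx (0.3) and M (-0.23).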

How the results depend on the processing

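Of 60 counts of called genes under the alternatives, 58 stayed within 1.5 times the count given in the report. The other 2 came from a log2 threshold of 0.5, which called 1 gene in CxH vs. MH (Cck) and 1 in CxWT vs. MWT (Calb2) in place of 0. No ratio of the 10 genes reached 0.7 in these 2 pairs. Alternatives that only change the test or tighten the call could therefore give nothing but 0 there. The correction for GC content and transcript length moved single ratios most, with 28 of 60 beyond their counting error and a change of sign in 5. It reversed the called ratio of Calb1 in CxH vs. MWT to 0.14, and the cause was not tested. It reduced the calls from 7 to 5 in CxH vs. CxWT, where Sst (0.65) and Lhx6 (0.49) lost theirs, and from 10 to 7 in CxH vs. MWT. A threshold of 1 also ended the call of Sst in both Cx and M, and an assumed coefficient of variation of 0.2 that of Lhx6 in Cx. Npy, Vip, Cck and Calb2 kept their calls in CxH vs. CxWT and MH vs. MWT under every alternative run. Cort kept them under all but the filter of 100 reads, which leaves it out. TMM and DESeq2 factors moved the median of all genes by 0.11 in MH vs. CxWT. No paired analysis was possible with replicate numbers because each group has 1 library, and the fit of area and genotype labels over the 4 libraries is given in the report. Depth limits Cort and Crh most, each under 100 reads in every library. No library could be left out, since each condition has 1.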
